A study of Mus musculus with 25 samples.

Results

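Amino acid transporters are membrane proteins that carry amino acids into and out of cells, and 10 of their genes were followed in mouse retina after injection of compounds that act on the unfolded protein response. The 10 genes were Slc7a1, Slc7a3, Slc7a5, Slc7a11, Slc3a2, Slc1a4, Slc1a5, Slc38a2, Slc6a9 and Slc6a20a. They were chosen by gene symbol, with earlier results of these data known. All 10 were found among the 18440 genes that every expression table of the study listed. Each of the 10 also passed the filter on low values, which kept 13117 genes that reached 1 FPKM or more in 5 or more of the 25 libraries. FPKM divides the fragments of a gene by its transcript length and by the mapped total of its library, so levels are already per transcript length. Slc7a11 reached 1 FPKM in 11 libraries, 7 of them outside the tunicamycin group, and Slc6a20a in 16 libraries, none of them from tunicamycin retinas. The other 8 genes reached it in all 25 libraries.

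Bulk RNA sequencing covered 5 groups of 5 retina libraries from wild-type C57BL/6J mice, injected into the vitreous of both eyes at postnatal day 30 with 1 µL per eye. The tested compounds were tunicamycin, which blocks N-linked glycosylation in the endoplasmic reticulum and served as the positive control of the study, Ceapin-A7, an inhibitor of the stress sensor ATF6, and AA147, an activator of ATF6, each given at 10 µM. Vehicle libraries formed 2 sets, vehicle set 2 and vehicle set 1. The treatment label of both reads PBS, while the protocol gives saline, with 0.05 to 0.1% dimethyl sulfoxide in vehicle and compound solutions alike. Column names give 24 h for all 3 compounds and no time for vehicle, and the study as a whole sampled eyes at 24 h, 3 days and 7 days. The labels do not say whether each library is a different mouse. The p-values therefore reflect only how much libraries vary, and part of that variation may be technical. Tunicamycin and Ceapin-A7 were set against vehicle set 2, and AA147 against vehicle set 1, because those tables list the same genes.

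The transporters fall into a few families. Slc3a2 encodes the CD98 heavy chain, a glycoprotein that brings light chains such as the products of Slc7a5 and Slc7a11 to the cell surface. When endoplasmic reticulum stress or a lack of amino acids leads to phosphorylation of the translation factor eIF2, translation of the transcription factor ATF4 increases, and ATF4 is known to activate genes for amino acid uptake and synthesis through elements shared with C/EBP factors. In the retina, LAT1, the Slc7a5 product, carries large neutral amino acids across the blood-retina barrier, and GLYT1, the Slc6a9 product, takes up glycine around glycinergic amacrine cells.

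Promoter sequences were available from RefSeq (build GRCm38.p6) for 7 of the 10 genes. The 3 shown here stand for the cystine transporter, for its heavy chain and for the proline transporter, whose level went the other way after tunicamycin. Each runs 5′ to 3′ over the 250 bases before the transcript start, and capitals mark matches to the C/EBP-ATF response element, searched as TGATGNAA on either strand (TTNCATCA on the other). The regions are chr3:50443614-50443863, chr19:8713898-8714147 and chr9:123678833-123679082, all on the minus strand.
Slc7a11: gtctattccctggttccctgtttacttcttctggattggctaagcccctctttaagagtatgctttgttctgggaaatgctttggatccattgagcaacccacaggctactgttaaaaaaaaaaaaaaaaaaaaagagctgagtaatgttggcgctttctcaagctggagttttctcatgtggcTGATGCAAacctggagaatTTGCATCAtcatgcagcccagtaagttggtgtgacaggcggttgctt
Slc3a2: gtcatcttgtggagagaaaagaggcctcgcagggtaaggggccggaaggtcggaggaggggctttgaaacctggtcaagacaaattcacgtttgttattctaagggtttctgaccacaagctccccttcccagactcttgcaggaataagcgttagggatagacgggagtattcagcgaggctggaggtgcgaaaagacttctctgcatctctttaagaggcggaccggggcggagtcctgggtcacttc
Slc6a20a: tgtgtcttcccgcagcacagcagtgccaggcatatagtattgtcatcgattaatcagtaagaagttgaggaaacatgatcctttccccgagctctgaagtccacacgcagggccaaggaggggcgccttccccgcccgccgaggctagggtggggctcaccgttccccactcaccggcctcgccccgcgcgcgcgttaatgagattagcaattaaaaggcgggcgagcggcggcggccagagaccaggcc

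The Slc7a11 promoter held 2 matches, TGATGCAA at -66 to -59 and TTGCATCA at -47 to -40, on opposite strands with 11 bases between them. Of the 7 genes matched, with 10 promoters between them, Slc7a11 was the only one with the element. Among all 32851 promoters of this length in the table, 3.45% held at least 1 match and 0.0396% held 2 or more. The motif TGACNNNGC, the core of the antioxidant response element, was found in the promoters of Slc38a2, Slc6a9 and Slc7a1, and in 10.2% of all promoters. The endoplasmic reticulum stress element was found in none of the 7 genes and in 0.113% of all promoters. These shares are per promoter, and a gene with several promoters has more chances of a match. A match is a string of letters and not a measured binding site, and such elements can lie outside this window.

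Several libraries stood apart from their groups. Library 1 was the highest and library 3 the lowest of the 5 tunicamycin libraries for 9 of the 10 transporters, an order seen in 13.4% of all genes tested. Libraries 4 and 5 of vehicle set 2 were both above libraries 1 to 3 for 7 of the 10, against 25.2% of all genes. Hspa5, the chaperone BiP and a standard marker of endoplasmic reticulum stress, was at 229 FPKM in tunicamycin library 3 and at 427 to 1513 FPKM in the other tunicamycin libraries, against 106 to 162 FPKM in vehicle set 2. Markers of rods, the main photoreceptors of mouse retina, were present in all 25 libraries, with 9 of them summing to between 9367 and 15949 FPKM. Traces of lens were uneven: the lens crystallin Cryaa ranged over 0.97 to 6234 FPKM in tunicamycin libraries and 2.92 to 2422 FPKM in vehicle set 2. Summed over 20 lens markers, tunicamycin libraries 1 to 5 were at 21006, 10493, 79.7, 389 and 8396 FPKM, highest in library 1 and lowest in library 3 as for 9 of the transporters, against 7765, 3209, 78.4, 3123 and 94.1 FPKM in vehicle set 2. The median log2 change of these markers was 1.34 after tunicamycin and 0.79 after Ceapin-A7, with all 20 positive in both comparisons. The part of lens tissue in the transporter values was not tested. The Y-linked gene Ddx3y was at 9.84 to 17.0 FPKM in the 5 tunicamycin libraries, whereas in vehicle set 2 it was listed at 0 in libraries 1 to 4 and at 16.3 FPKM in library 5. The groups thus differed in a gene that only male tissue expresses. Depth, estimated from the steps between low FPKM values, was 15.2 to 24.9 M fragments per library, and at the median depth of 23.4 M, 1 FPKM over 2 kb corresponds to 46.8 fragments. The depth estimate is rough and comes without an interval. It assumed 250 unusable bases per transcript, and implied fragment numbers lay on average 0.142 to 0.184 from a whole number.

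A cationic amino acid transporter, carriers of small neutral amino acids and the shared heavy chain were higher after tunicamycin, unevenly between libraries, and the proline transporter Slc6a20a was lower in every library. Against vehicle set 2, Slc7a3, Slc1a4, Slc3a2 and Slc38a2 rose and Slc6a20a fell past an adjusted p of 0.05 in limma, while Slc7a1, Slc7a5, Slc7a11, Slc1a5 and Slc6a9 did not pass. Across all 13117 genes, 8.7% passed in this comparison, 5.89% higher and 2.81% lower. The median change of the 10 transporters was 0.88 on the log2(FPKM + 1) scale, beside 0.01 for all genes tested. This scale understates the change of genes with low values. The 4 rises depend on a spread shared over all 5 groups: fitted with the tunicamycin and vehicle set 2 libraries alone, adjusted p was 0.157 for Slc7a3, 0.204 for Slc1a4, 0.213 for Slc3a2 and 0.251 for Slc38a2, and 0.00138 for Slc6a20a. With Ddx3y as a covariate Slc7a3 kept its call at an adjusted p of 0.0487, and Slc1a4 (log2 change 1.18, adjusted p = 0.087), Slc3a2 (0.78, adjusted p = 0.108) and Slc38a2 (0.73, adjusted p = 0.125) lost theirs. Without tunicamycin library 1 the 4 rises were smaller and still called, at 1.42 for Slc7a3, 0.96 for Slc1a4, 0.64 for Slc3a2 and 0.49 for Slc38a2. Over all genes 773 were called higher and 368 lower, a split that became 581 and 558 after median-ratio scaling, which changed no call among the 10.

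**Figure D1:**
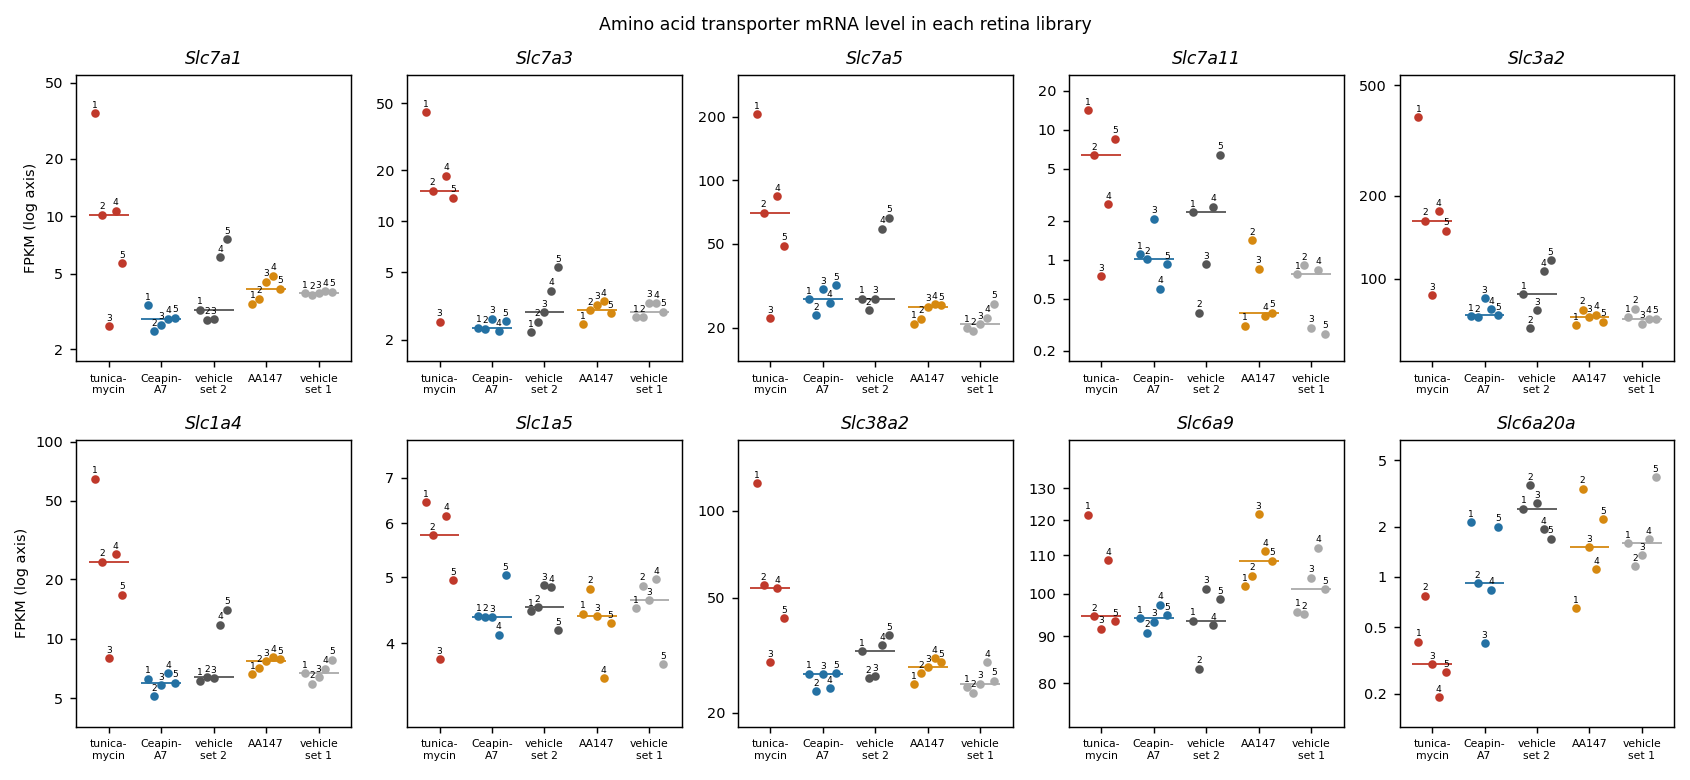
Level of each transporter in FPKM (log axis) in every retina library, by group, with the library number above each point and the group median as a line. Tunicamycin library 1 is highest and library 3 lowest of the tunicamycin libraries in every panel except that of Slc6a20a, whose 5 tunicamycin points lie below all vehicle set 2 points.

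Slc7a1 and Slc7a3 encode the cationic amino acid transporters CAT1 and CAT3, which carry arginine, lysine and ornithine. Slc7a3 was at 44.2, 15.2, 2.56, 18.6 and 13.8 FPKM in the 5 tunicamycin libraries, against 2.22, 2.56, 2.90, 3.90 and 5.36 FPKM in vehicle set 2. Of the tunicamycin libraries, 4 lay above every vehicle library and library 3 lay inside the vehicle range. The mean was 18.9 ± 15.4 FPKM after tunicamycin and 3.39 ± 1.27 FPKM in vehicle set 2 (SD, n = 5 each), a log2 change of 1.82 ± 0.36 (SE; limma adjusted p = 0.00321). In Slc7a1 the levels were 34.6, 10.2, 2.65, 10.7 and 5.65 FPKM after tunicamycin and 3.23, 2.87, 2.89, 6.07 and 7.59 FPKM in vehicle set 2. Here the groups overlapped at both ends, since tunicamycin library 3 was below all vehicle libraries and vehicle library 5 above tunicamycin library 5. The log2 change of Slc7a1 was 0.97 ± 0.35 (SE) and did not pass (limma adjusted p = 0.0852), but without tunicamycin library 3 it was 1.35 (adjusted p = 0.00413), and without vehicle set 2 libraries 4 and 5 it was 1.36 (adjusted p = 0.0346). Without tunicamycin library 1, its highest value, it was 0.52 and did not pass. Library 3 was the lowest tunicamycin library and vehicle libraries 4 and 5 the highest of their set. Leaving them out therefore had to enlarge the rise, here and for Slc7a5 and Slc7a11 below.

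Slc3a2, the heavy chain, was one of the most abundant of the 10 transcripts. It was at 384, 162, 87.2, 176 and 149 FPKM in tunicamycin libraries, against 87.8, 66.4, 76.9, 107 and 117 FPKM in vehicle set 2. Again 4 tunicamycin libraries exceeded every vehicle library, and library 3 sat just under vehicle library 1. Its log2 change was 0.93 ± 0.22 (SE; limma adjusted p = 0.0106).

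The light chain gene Slc7a5 was at 205, 70.3, 22.3, 84.2 and 49.0 FPKM after tunicamycin and at 27.5, 24.2, 27.5, 58.9 and 66.5 FPKM in vehicle set 2. Vehicle libraries 4 and 5 were above tunicamycin libraries 3 and 5, so the groups overlapped widely, and the change of 0.83 ± 0.36 on the log2 scale (SE) did not pass (limma adjusted p = 0.148). Leaving out vehicle libraries 4 and 5 gave 1.31 (adjusted p = 0.0332), leaving out tunicamycin library 3 gave 1.21 (adjusted p = 0.00802), and leaving out tunicamycin library 1 gave 0.43 (adjusted p = 0.477). Slc7a11, the cystine-glutamate exchanger that supplies cysteine for glutathione and whose promoter holds the paired elements shown above, was at 14.1, 6.40, 0.75, 2.67 and 8.50 FPKM after tunicamycin and 2.31, 0.39, 0.92, 2.55 and 6.43 FPKM in vehicle set 2. Its levels varied 18.9-fold among tunicamycin libraries and 16.5-fold within vehicle set 2, more than those of any other of the 10 genes in either group. The log2 change of Slc7a11 was 0.97 ± 0.43 (SE; limma adjusted p = 0.159), and it was 1.50 without vehicle libraries 4 and 5 (adjusted p = 0.0443) and 1.41 without tunicamycin library 3 (adjusted p = 0.0136). Without tunicamycin library 1 it was 0.63 (adjusted p = 0.453), and with the Ddx3y covariate 0.32 (adjusted p = 0.746).

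Among the carriers of neutral amino acids, Slc1a4 encodes ASCT1, an exchanger of alanine, serine and cysteine. Its level was 64.8, 24.5, 7.99, 26.9 and 16.8 FPKM in tunicamycin libraries, against 6.14, 6.39, 6.33, 11.8 and 14.1 FPKM in vehicle set 2. Tunicamycin library 3 was the only tunicamycin library within the vehicle range, and the log2 change was 1.33 ± 0.31 (SE; limma adjusted p = 0.00953). Slc38a2 encodes SNAT2, a sodium-coupled carrier of small neutral amino acids that is known to be induced when amino acids are scarce. It was at 124, 55.2, 29.9, 54.0 and 42.5 FPKM after tunicamycin and at 32.6, 26.4, 26.7, 34.3 and 37.1 FPKM in vehicle set 2, with the same single library inside the vehicle range. The log2 change of Slc38a2 was 0.78 ± 0.21 (SE; limma adjusted p = 0.0215). Its call also ended with the pigment epithelium markers as a covariate (log2 change 0.74, adjusted p = 0.0545) and without vehicle set 2 library 3 (0.73, adjusted p = 0.0524), with changes close to the full one. Slc1a5, which encodes the glutamine carrier ASCT2, was at 6.44, 5.76, 3.79, 6.16 and 4.95 FPKM after tunicamycin, against 4.18 to 4.87 FPKM in vehicle set 2. It did not pass (log2 change 0.19 ± 0.09, SE; limma adjusted p = 0.208), although without tunicamycin library 3 it did (0.29, adjusted p = 0.0129). That library held its lowest tunicamycin value, and with any 1 library left out the log2 change of Slc1a5 ran from 0.13 to 0.29.

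The glycine transporter gene Slc6a9 had a mean level near that of Slc3a2 in vehicle set 2, at 93.8 FPKM against 90.9 FPKM, whereas in vehicle set 1 it was the higher of the pair, at 102 FPKM against 72.6 FPKM. Its level was 122, 94.5, 91.7, 109 and 93.4 FPKM in tunicamycin libraries, against 83.0 to 101 FPKM in vehicle set 2. The log2 change was 0.11 (95% confidence interval -0.03 to 0.26; limma adjusted p = 0.317), an interval narrower than that of any other of the 10 genes. Summed over 11 markers of glycinergic and other amacrine cells, levels were 426 to 618 FPKM after tunicamycin and 560 to 709 FPKM in vehicle set 2, with 1 marker called higher and 1 lower.

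Slc6a20a encodes a sodium- and chloride-coupled carrier of proline and related imino acids. It was at 0.41, 0.77, 0.30, 0.19 and 0.27 FPKM in the 5 tunicamycin libraries, against 2.55, 3.54, 2.75, 1.93 and 1.69 FPKM in vehicle set 2. No tunicamycin library reached 1 FPKM and no vehicle set 2 library was below it, and Slc6a20a was the only transporter of the 10 whose groups did not overlap, a separation with the lower values after tunicamycin that 1.24% of all genes showed. The mean was 0.388 ± 0.228 FPKM after tunicamycin and 2.49 ± 0.729 FPKM in vehicle set 2 (SD, n = 5 each). The log2 change was -1.32 ± 0.25 (SE; limma adjusted p = 0.00202), and Slc6a20a passed in all 37 alternative settings that tested it. Of its 50-base stretches, 15.3% also occur in the paralog Slc6a20b, so reads may have been shared, and Slc6a20b was listed at 0 in every library apart from 1 Ceapin-A7 library at 0.02 FPKM.

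Some markers of the retinal pigment epithelium, a tissue that can adhere to a dissected retina, were also lower after tunicamycin. The visual cycle enzyme gene Rpe65 was at 0.40 to 2.63 FPKM after tunicamycin and 3.70 to 14.4 FPKM in vehicle set 2. Of 14 pigment epithelium markers, 12 were tested, 4 were called lower and 0 higher, the summed level was 150 to 402 FPKM after tunicamycin and 339 to 502 FPKM in vehicle set 2, and none of the 14 was at 0 throughout a group. Rlbp1 served here as a marker of both pigment epithelium and Muller glia, so the mean of these markers does not measure pigment epithelium alone. With that mean as a covariate the log2 change of Slc6a20a was -1.23 (limma adjusted p = 0.00919). That mean had an r of only -0.33 and 0.39 with Slc6a20a within libraries not given tunicamycin. The fit therefore cannot decide what part pigment epithelium had in the change, and that part was not tested. In bulk retina, fewer cells of a type and less RNA per cell cannot be told apart.

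The 2 tested genes whose pattern over the 15 libraries of tunicamycin, Ceapin-A7 and vehicle set 2 was most like that of Slc6a20a were Pon1 (Pearson r = 0.94), a paraoxonase, and Ttr (r = 0.93), which encodes the thyroxine and retinol carrier transthyretin. Ttr was at 7.57 to 26.3 FPKM after tunicamycin and 81.9 to 167 FPKM in vehicle set 2. In the 10 of these libraries without tunicamycin, which took part in the choice of Ttr, its r with Slc6a20a was 0.97. In the 10 libraries of AA147 and vehicle set 1, which took no part, it was 0.93. Ttr is itself on the list of pigment epithelium markers, as is Rpe65. After AA147, Rpe65 was at 1.31, 9.48, 3.04, 1.71 and 5.60 FPKM and Slc6a20a at 0.65, 3.37, 1.50, 1.11 and 2.22 FPKM. In vehicle set 2, Rpe65 was at 11.4, 14.4, 6.90, 3.87 and 3.70 FPKM and Slc6a20a at 2.55, 3.54, 2.75, 1.93 and 1.69 FPKM. The order of libraries was the same for both genes after AA147 and only partly so in vehicle set 2 and the remaining groups. In vehicle set 1, Rpe65 was at 3.36, 3.16, 3.78, 3.47 and 5.58 FPKM and Slc6a20a at 1.59, 1.16, 1.35, 1.68 and 3.94 FPKM. After Ceapin-A7, Rpe65 was at 5.47, 3.76, 1.23, 3.75 and 8.17 FPKM and Slc6a20a at 2.12, 0.92, 0.40, 0.84 and 1.99 FPKM. The mean of the 12 tested markers, which include Ttr and Rpe65, tracked Slc6a20a less closely. Its Pearson r with Slc6a20a was -0.33 (Spearman correlation -0.22; permutation p adjusted over 2 relations 0.341 and 0.534) in the 10 libraries of Ceapin-A7 and vehicle set 2, and 0.39 (Spearman correlation 0.49; adjusted permutation p 0.341 and 0.308) in the 10 of AA147 and vehicle set 1. Without the 2 libraries farthest from the median marker level, r was 0.33 and 0.44.

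**Figure D2:**
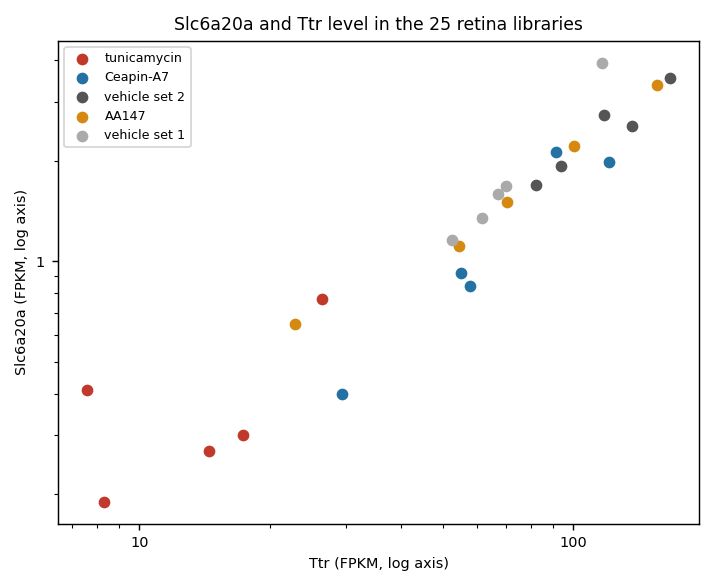
Slc6a20a against Ttr, both in FPKM on log axes, with 1 point per library in all 25 retina libraries and colours for the 5 groups. The 5 tunicamycin points lie at 7.57 to 26.3 FPKM of Ttr and below 1 FPKM of Slc6a20a, and in the remaining groups libraries with more Ttr had more Slc6a20a.

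Over the same 15 libraries the 4 transporters called higher had similar patterns, with r of 0.98 between Slc1a4 and Slc3a2, 0.98 between Slc3a2 and Slc38a2, and 0.98 between Slc1a4 and Slc7a3. In the 10 libraries of AA147 and vehicle set 1 the r of these pairs was -0.12, -0.08 and 0.41. The remaining pairs were Slc7a3 with Slc3a2, Slc7a3 with Slc38a2 and Slc1a4 with Slc38a2. Their r was 0.97, 0.95 and 0.97 in the 15 libraries, and 0.06, 0.62 and 0.80 in the 10. Slc7a1 and Slc7a5, which did not pass, had an r of 0.98 in the 15 libraries and 0.67 in the 10. The genes closest to Slc1a4 were Mthfd2 (r = 1.00), a mitochondrial folate enzyme, and Shmt2 (0.99), a serine hydroxymethyltransferase. Slc3a2 was closest to Shmt2 (0.99) and to Pycr1 (0.99), which makes proline. Slc38a2 was closest to the serine synthesis enzyme gene Psat1 (0.99) and the calcium pump gene Atp2a2 (0.99), and Slc7a3 to the folate enzyme gene Aldh1l2 (0.98) and the stress-induced Sesn2 (0.98). These libraries share the tunicamycin response. In the 10 of them without tunicamycin, r of these pairs ran from 0.84 for Slc7a3 with Sesn2 to 0.97 for Slc1a4 with Mthfd2. There it was 0.95 for Slc3a2 with Shmt2. Those 10 took part in the choice of the pairs, so they are no check of it. The 10 libraries of AA147 and vehicle set 1 took no part. There r was 0.61 for Slc1a4 with Mthfd2 and -0.12 with Shmt2, and -0.19 for Slc3a2 with Shmt2 and -0.07 with Pycr1. It was 0.01 for Slc38a2 with Psat1 and -0.47 with Atp2a2, and 0.24 for Slc7a3 with Aldh1l2 and 0.15 with Sesn2.

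**Figure D3:**
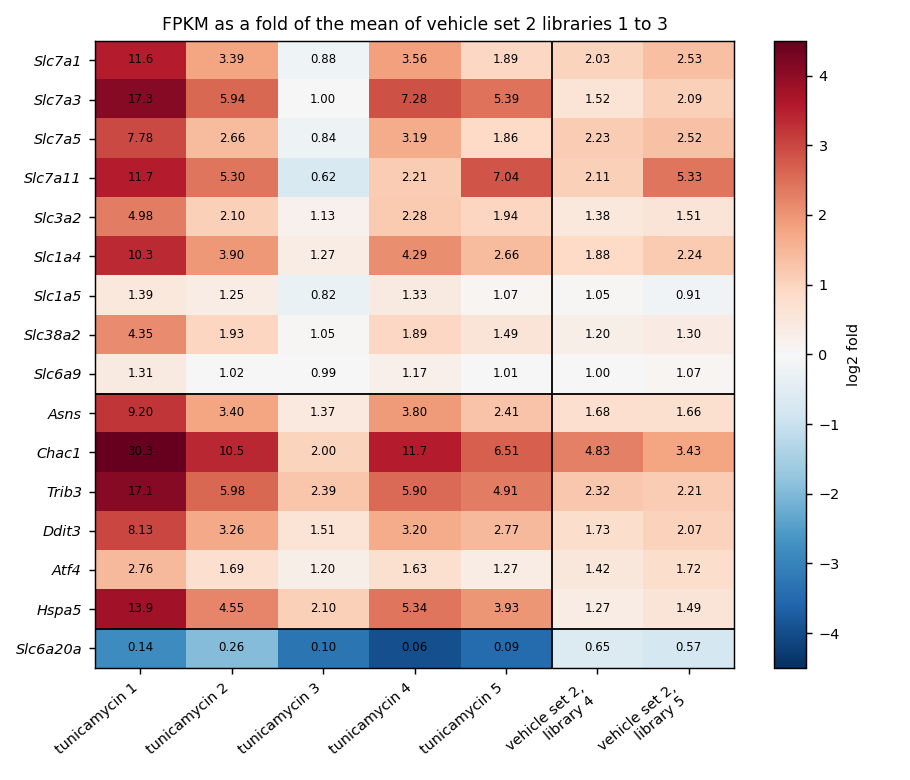
FPKM of each gene in the 5 tunicamycin libraries and in libraries 4 and 5 of vehicle set 2, as a fold of the mean of vehicle set 2 libraries 1 to 3, with colour on a log2 scale and the fold printed in each cell. Slc7a3 stands at 17.3-fold in tunicamycin library 1 and 1.00-fold in library 3, Slc7a11 at 5.33-fold in vehicle set 2 library 5, and Slc6a20a below 1-fold in all 7 columns.

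In tunicamycin library 1, Slc7a3 was 17.3-fold, Slc7a11 11.7-fold, Slc7a1 11.6-fold and Slc1a4 10.3-fold the mean of vehicle set 2 libraries 1 to 3. Against the mean of all 5 vehicle set 2 libraries the same genes were at 13.1-fold, 5.61-fold, 7.65-fold and 7.24-fold. In tunicamycin library 3 they were at 1.00-fold, 0.62-fold, 0.88-fold and 1.27-fold of the mean of libraries 1 to 3, while Hspa5 was at 2.10-fold. Libraries 4 and 5 of vehicle set 2 were at 2.23-fold and 2.52-fold for Slc7a5, 2.03-fold and 2.53-fold for Slc7a1, and 2.11-fold and 5.33-fold for Slc7a11. In those same 2 libraries the rod markers summed to 9506 and 9367 FPKM, against 12589 to 14207 FPKM in libraries 1 to 3, and tunicamycin library 1 had the lowest rod sum of its group at 10063 FPKM. The part of the rod level in the transporter values was not tested.

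Genes of the ATF4 and amino acid response as a list moved in the same direction as the 4 rising transporters. Of 29 tested genes of the 30 listed, 20 rose after tunicamycin and 0 fell, with a median log2 change of 0.98 against 0.01 for all genes. The largest changes among those called were those of Chac1 (2.15 ± 0.45, SE), which degrades glutathione, Trib3 (1.92 ± 0.30), a pseudokinase induced by ATF4, and Pycr1 (1.81 ± 0.38). Asns, the asparagine synthetase gene, rose by 1.4 ± 0.28 and Ddit3, which encodes CHOP, by 1.32 ± 0.27, whereas the transcript of Atf4 itself did not pass (0.45 ± 0.17; limma adjusted p = 0.0942). Atf4 was at 249 to 572 FPKM after tunicamycin and 198 to 356 FPKM in vehicle set 2. In the 32 promoters of this list, 7 of 27 matched genes held the C/EBP-ATF element, among them Chac1, Asns and Pycr1.

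The remaining amino acid transporters moved in both directions. Of 45 others listed, 29 were tested, 4 rose and 3 fell after tunicamycin, and the median log2 change was 0.00. The largest rise was that of Slc7a2 (0.82 ± 0.26, SE; limma adjusted p = 0.0461), another cationic transporter, which was at 2.77 to 9.96 FPKM after tunicamycin and 1.82 to 6.52 FPKM in vehicle set 2. Smaller rises were found for the neuronal glycine transporter Slc6a5 (0.33), Slc36a4 (0.21) and the lysosomal arginine sensor Slc38a9 (0.15). The glutamine transporter Slc38a5 fell by 0.70 ± 0.11 (SE; limma adjusted p = 0.000257), to 0.26 to 0.52 FPKM after tunicamycin, against 0.76 to 1.66 FPKM in vehicle set 2, with no overlap between the groups. The glutamate transporter Slc1a1 (-0.24) and the glutamine transporter Slc38a3 (-0.21) were also lower.

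**Figure D4:**
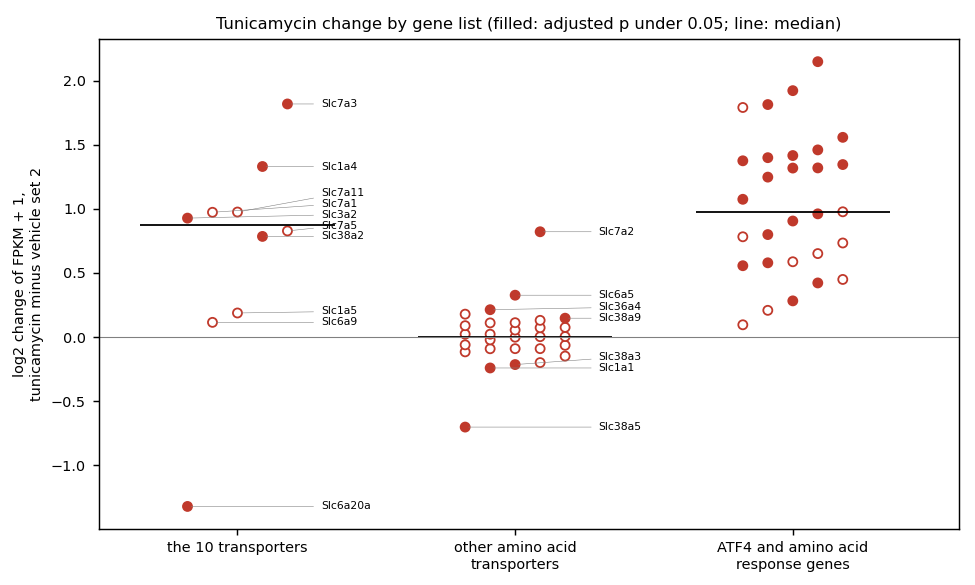
Log2 change of FPKM + 1, tunicamycin minus vehicle set 2, for each tested gene of 3 lists, with filled points for a limma adjusted p under 0.05 and a line at the median of each list. The medians stand at 0.88 for the 10 transporters, 0.00 for the other amino acid transporters and 0.98 for the ATF4 and amino acid response genes.

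Other cell type markers were uneven between tunicamycin and vehicle set 2. Endothelial markers, which include cells that carry transporters at the blood-retina barrier, were called lower for 8 of 14 and higher for 1, and Cldn5, a tight junction gene of endothelium, was at 4.62 to 7.29 FPKM after tunicamycin and 13.6 to 20.9 FPKM in vehicle set 2. Pericyte and smooth muscle markers were called lower for 5 of 9. No marker passed among 20 of lens (all 20 positive, as given above), 12 of Muller glia, 9 of rods, 10 of microglia and 8 of fibroblasts and meninges, and 0 cornea markers were abundant enough to test. The part of these cells in the transporter changes was not tested.

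After AA147, the 10 transporters were close to vehicle set 1. No gene of the 13117 passed in limma (0.0% called), and 246 genes, 1.88%, had an unadjusted p under 0.05, none of them a transporter of the 10. Log2 changes ran from -0.10 for Slc6a20a to 0.14 for Slc7a5 and Slc38a2, with an adjusted p of 1.00 for each. Slc7a5 was at 20.9, 22.2, 25.2, 25.9 and 25.5 FPKM after AA147 and at 20.0, 19.4, 20.8, 22.3 and 26.0 FPKM in vehicle set 1, and its 95% confidence interval was -0.60 to 0.87. Slc3a2 was at 67.8 to 77.3 FPKM after AA147 and 68.8 to 78.0 FPKM in vehicle set 1. Slc6a20a was at 0.65, 3.37, 1.50, 1.11 and 2.22 FPKM after AA147, against 1.59, 1.16, 1.35, 1.68 and 3.94 FPKM in vehicle set 1, with overlapping ranges, 2 AA147 libraries below every vehicle library and vehicle library 5 above every AA147 library.

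After Ceapin-A7, the transporters stood at or below vehicle set 2 and no change passed. Again 0 genes were called (0.0%), while 1615 genes, 12.3%, had an unadjusted p under 0.05, Slc6a20a among them. Of the 10 log2 changes 9 were negative, with a median of -0.37 against 0.00 for all genes. Vehicle set 2 libraries 4 and 5 were both above libraries 1 to 3 for 7 of the 10, against 25.2% of all genes. Such high vehicle values make the changes of those genes more negative. Slc7a1 was at 2.49 to 3.40 FPKM after Ceapin-A7, against 3.23, 2.87, 2.89, 6.07 and 7.59 FPKM in vehicle set 2. Slc7a5 was at 27.4, 23.0, 30.5, 26.3 and 31.9 FPKM after Ceapin-A7, against 27.5, 24.2, 27.5, 58.9 and 66.5 FPKM in vehicle set 2, so that the difference lay in vehicle libraries 4 and 5. Slc6a20a had the largest change, -0.67 ± 0.25 (SE; limma adjusted p = 0.329), with 2.12, 0.92, 0.40, 0.84 and 1.99 FPKM after Ceapin-A7. The 29 genes of the ATF4 list were all negative against the same vehicle libraries, and 0 were called. Of that list, Atf4, Ddit3, Asns, Chac1 and Trib3 were also higher in vehicle libraries 4 and 5 than in libraries 1 to 3. Tunicamycin and Ceapin-A7 were set against the same vehicle libraries, so these 2 sets of changes are not independent.

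**Figure D5:**
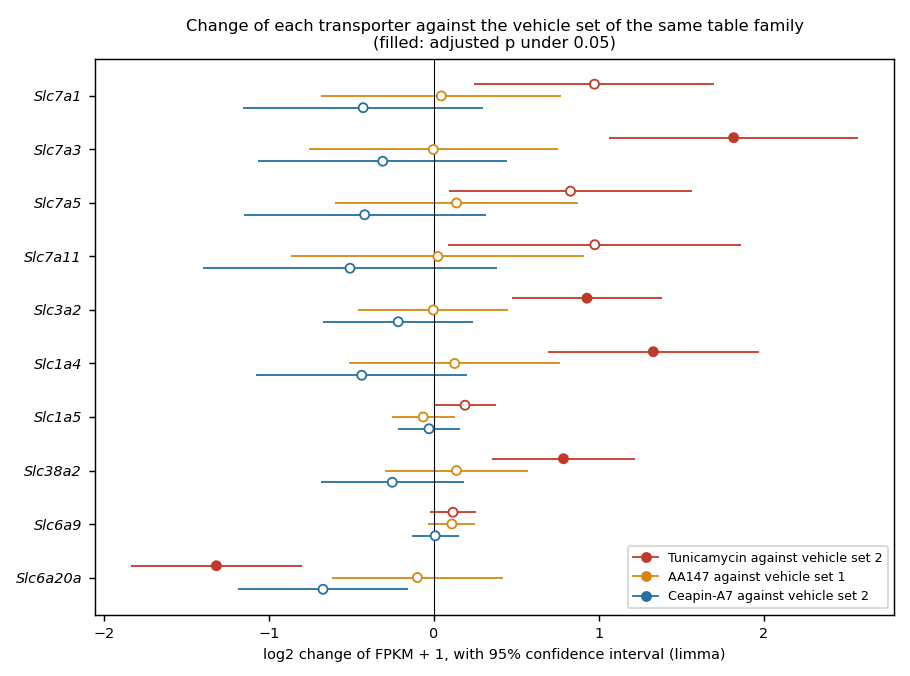
Log2 change of FPKM + 1 of each transporter with its 95% confidence interval from limma, for tunicamycin against vehicle set 2, AA147 against vehicle set 1 and Ceapin-A7 against vehicle set 2, filled where the adjusted p was under 0.05. Filled points are those of Slc7a3, Slc3a2, Slc1a4 and Slc38a2 to the right of 0 and Slc6a20a to the left, all for tunicamycin.

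Compared directly with Ceapin-A7, tunicamycin retinas had higher levels of 7 transporters: Slc7a3 by 2.13 ± 0.36, Slc1a4 by 1.77 ± 0.31, Slc7a11 by 1.48 ± 0.43, Slc7a1 by 1.4 ± 0.35, Slc7a5 by 1.25 ± 0.36, Slc3a2 by 1.14 ± 0.22 and Slc38a2 by 1.04 ± 0.21 (log2 change, SE; limma adjusted p at most 0.0251). In this comparison 8.83% of all genes were called higher and 4.48% lower. Slc3a2 was at 87.2 to 384 FPKM after tunicamycin and 72.7 to 84.9 FPKM after Ceapin-A7, and Slc1a4 at 7.99 to 64.8 FPKM after tunicamycin and 5.11 to 6.71 FPKM after Ceapin-A7. Together with Slc38a2 these were the 3 transporters whose 2 groups did not overlap, against 6.73% of all genes. Fitted with these 2 groups alone, 613 genes were called over all, and 2 of the 10 passed, Slc7a3 and Slc1a4. The call of Slc7a11 also ended without tunicamycin library 1, 2 or 5 or Ceapin-A7 library 4 (adjusted p 0.0546 to 0.100), and that of Slc7a5 without tunicamycin library 1 or 4 or Ceapin-A7 library 2 (0.0531 to 0.0801). With the Ddx3y covariate the calls of Slc7a5 (log2 change 1.16, adjusted p = 0.0538) and Slc7a11 (1.18, adjusted p = 0.0727) ended. With the pigment epithelium covariate those of Slc7a1 (1.24, adjusted p = 0.0927) and Slc7a5 (1.12, adjusted p = 0.132) ended, and the pigment epithelium markers themselves had a median log2 change of -1.09 in this comparison, with 1 of 12 called lower. Slc6a20a did not pass (-0.65 ± 0.25; limma adjusted p = 0.0849), but did without Ceapin-A7 library 3 (adjusted p = 0.0475). That library held the lowest Ceapin-A7 value, so leaving it out had to enlarge the difference.

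The tunicamycin change did not differ from the AA147 change past the threshold for any of the 10 with equal weights, each taken relative to its own vehicle set, in a comparison where 1.04% of all genes passed. The differences were 1.82 ± 0.52 for Slc7a3 (SE; limma adjusted p = 0.0893), 1.2 ± 0.44 for Slc1a4 (0.179), 0.93 ± 0.31 for Slc3a2 (0.144) and -1.22 ± 0.35 for Slc6a20a (0.0955). Without tunicamycin library 3, 637 genes were called over all, and 3 of the 10 passed as higher, namely Slc7a3, Slc3a2 and Slc1a4. Without vehicle set 1 library 5 Slc6a20a passed as lower (-1.42, limma adjusted p = 0.0361). Each library left out held the end value of its group for these genes, so leaving it out had to enlarge the difference. With weights for each library over all 25, 427 genes were called over all. The same 3 passed as higher (limma adjusted p 0.00131 for Slc7a3, 0.00938 for Slc3a2 and 0.015 for Slc1a4).

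The 2 vehicle sets differed widely, with 46.8% of all genes called between vehicle set 2 and vehicle set 1, but 0 of the 10 transporters. The nearest were Slc7a11 (0.90 ± 0.43, SE; limma adjusted p = 0.0904) and Slc7a5 (0.76 ± 0.36; adjusted p = 0.0831). The count of 0 depends on a spread pooled with the variable tunicamycin group. Fitted with the 2 vehicle sets alone, Slc7a5 (0.76, limma adjusted p = 0.0325) and Slc38a2 (0.27, adjusted p = 0.0425) passed as higher in vehicle set 2. That fit called 5867 of all 13117 genes, so the transporters did not stand out in it. Without tunicamycin library 3, Slc7a5 (limma adjusted p = 0.0281) and Slc7a11 (adjusted p = 0.0394) passed. Fits without any 1 library called 5721 to 6555 genes. Slc7a11 was at 0.39 to 6.43 FPKM in vehicle set 2 and 0.27 to 0.91 FPKM in vehicle set 1, and Slc7a5 at 24.2 to 66.5 FPKM in vehicle set 2 and 19.4 to 26.0 FPKM in vehicle set 1. Their tables list different genes, so a difference in how the tables were made cannot be told apart from one between retinas. The 2 vehicle sets also differed in Ddx3y, as given above. By mean level in vehicle set 2 the order was Slc6a9 (93.8 FPKM), Slc3a2 (90.9), Slc7a5 (40.9), Slc38a2 (31.4), Slc1a4 (8.95), Slc1a5 (4.57), Slc7a1 (4.53), Slc7a3 (3.39), Slc7a11 (2.52) and Slc6a20a (2.49). The ranges of neighbours in this order overlapped, apart from those on either side of Slc1a4. Slc1a4 spanned 6.14 to 14.1 FPKM, below the 26.4 to 37.1 FPKM of Slc38a2 and above the 4.18 to 4.87 FPKM of Slc1a5.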

How the data were processed

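The values deposited by the authors were FPKM, rounded to 2 decimals, with a table for each group. GRCm39 is the build that the submitters' processing notes give, and the tools there are RSEM 1.2.18, HISAT2 2.0.4 and DESeq2 1.4.5, with no statement of what each did. Columns were matched to samples by name, and 0 columns of values were left out. The tables of tunicamycin, Ceapin-A7 and vehicle set 2 list 19102 genes and those of AA147 and vehicle set 1 list 18676. The 18440 in both were used.

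FPKM holds no counts and whole fragments could not be recovered, so limma 3.58.1 (R 4.3.3) was fitted on log2(FPKM + 1) with all 5 groups and an intensity trend. Tests were two-sided with Benjamini-Hochberg adjustment over 13117 genes, called at 0.05. A spread pooled over 5 groups understates that of a more variable group and overstates that of a less variable one. Python 3.11.15, numpy 2.4.6, pandas 2.3.3, scipy 1.17.1 and matplotlib 3.10.9 were used for the rest.

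The members, gene lists and marker lists were chosen with earlier results of these data known. Genes named besides the 10 were, by rule, the called genes of largest change on the list of other transporters (up to 5 in each direction), Atf4, Ddit3, Asns, Chac1, Trib3 and the 3 largest called changes on the ATF4 list, the 2 genes most correlated with each transporter called for tunicamycin, and library markers. One marker gene is not reported here and enters no marker sum. Alternatives were another pseudocount, 2 other filters, 2 other scalings, the compared groups alone, library weights, a Ddx3y covariate, a replicate block, the other vehicle set, and leaving out libraries.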

Additional observations from a re-analysis of the deposited data

Results flagged for a closer look

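In 3 of the 50 groups of 5 libraries examined, the value at one end lay farther from the others than Dixon's criterion of 0.71 allows, where chance alone gives about 1 group in 20. A count of 3 is near that share. The criterion was applied to FPKM, not to the log2(FPKM + 1) values used in the fits. Slc7a1 was at 34.64 FPKM in tunicamycin library 1, against 2.65 to 10.7 FPKM in the other 4 libraries of that group. Slc38a2 was at 124.39 FPKM in the same library, against 29.9 to 55.2 FPKM in the others. Slc6a20a was at 3.94 FPKM in library 5 of vehicle set 1, against 1.16 to 1.68 FPKM in the rest of the set. Without tunicamycin library 1 the log2 change of Slc38a2 was 0.49 and that of Slc7a1 was 0.52.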

How the results depend on the processing

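Of 2238 transporter values recomputed under 36 alternatives set in advance and 2 added after seeing the data, 2105 kept their direction and their side of the threshold, 65 that were not called in either fit changed direction, 25 lost a call, 43 gained one and 0 called values changed sign. For tunicamycin against vehicle set 2, 4 transporters were higher in the main analysis. With the compared groups alone 0 were (86 genes over all), with the Ddx3y covariate 1 (430 genes), and with the other vehicle set 7 (7381 genes). Without vehicle set 2 libraries 4 and 5 it was 7 (1031 genes), and without these and tunicamycin library 3 it was 8 (1963 genes). Leaving out 1 library gave 3 to 8 transporters and 611 to 1985 genes, the lowest gene count without tunicamycin library 1 and the highest without library 3. The stricter filter left 0 lower transporters, since it removed Slc6a20a and Slc7a11 from the test. For AA147 the other vehicle set gave 1 higher transporter, Slc6a9, and 6016 genes, the Ddx3y covariate gave 1 gene, and leaving out 1 library gave 0 to 1 genes. For Ceapin-A7 the other vehicle set gave 6676 genes, and leaving out 1 library 0 to 14 genes. Between vehicle sets, 2 transporters were higher with the compared groups alone (5867 genes over all) and 1 with the Ddx3y covariate (5369 genes). Without 1 library it was 0 to 2 (5721 to 6555 genes). For tunicamycin against Ceapin-A7, the compared groups alone gave 2 higher transporters and 613 genes, and the pseudocount of 0.1 gave 1 lower transporter and 1766 genes. Removing the 3 libraries gave 3389 genes and the pigment epithelium covariate 573 genes. Leaving out 1 library gave 5 to 8 higher and 0 to 1 lower transporters and 925 to 2874 genes. For tunicamycin against AA147, library weights gave 3 higher transporters and 427 genes, removing the 3 libraries 7 higher and 1 lower and 643 genes, the stricter filter 85 genes, the compared groups alone 77 genes, the Ddx3y covariate 60 genes, and leaving out 1 library 0 to 3 higher and 0 to 1 lower transporters and 89 to 637 genes. The cause of these shifts was not tested. The other vehicle set was not run for that comparison.

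Replicate numbers did not pair the libraries: same-numbered deviations correlated at -0.43 to 0.40 for tunicamycin and vehicle set 2, at -0.43 to 0.40 for AA147 and vehicle set 1, and at -0.33 to 0.47 for Ceapin-A7 and vehicle set 2. With the replicate number as a block, 4 transporters were higher and 1 lower after tunicamycin and 1115 genes were called over all, against 1141 without it. Depth limits the lowest values: the 0.19 FPKM of Slc6a20a in tunicamycin library 4, over 2 kb, is about 7.04 fragments at the estimated 18.5 M of that library.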
